A study of Mus musculus with 6 samples.

Results

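Smooth muscle transcripts were followed across fetal mouse small intestine: Acta2, Tagln, Myl9, Actg2, Myh11, Cnn1, Des, Synpo2, Lmod1 and Myocd. The 10 genes were taken by symbol from the 24568 genes of the deposited matrix, and all 10 were present. The tissue came from Pdgfra-H2BGFP mice, strain C57/BL6, in which a nuclear green fluorescent protein reports on Pdgfra, the PDGF receptor alpha gene of gut mesenchyme. All samples shared this reporter, and no other genotype or treatment was named. One group of samples held ages E15.5 and E16.5 and the other held E13.5, E14.5 and E18.5, with 2 all-cell lanes and 1 lane of enriched cells each, so embryos, ages and gut segments were pooled within a lane. Enrichment was for cells high in Pdgfra, or positive for Epcam (epithelium), CD31 (endothelium) or CD45 (blood lineage).

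Smooth muscle of the gut forms from mesenchyme around the epithelial tube, first as a circular layer and later as further layers and the thin muscularis mucosae. The contractile program is switched on by serum response factor and its partner myocardin at DNA elements called CArG boxes. Actin and the small actin-binding proteins appear early in this program, whereas smooth muscle myosin, calponin and other filament proteins mark more mature cells. Mesenchymal cells that express Pdgfra lie mostly under the epithelium and between layers, and are a separate branch of the same mesenchyme.

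The cells carried 6 barcode suffixes, and no label tied a suffix to a sample. They were therefore handled as 6 technical sets, named A1, A2 and A3 for one suffix ending and B1, B2 and B3 for the other, which were not assigned to ages or to enrichment. Every comparison below is one of libraries without replicates, so no test was made, and every interval is a 95% interval for counting error alone. The gap between sets 1 and 2 of the same ending was used as the measure of how far like sets differ. After filtering, 12630 of 13127 cells remained, from 1177 in A3 to 2514 in B2. Median unique molecular identifiers (UMIs, 1 for each captured transcript) per cell were 12121, 13574 and 7070 in A1, A2 and A3 and 4182, 4118 and 3548 in B1, B2 and B3. Any pair of sets shared between 0 and 3 cell barcodes. Levels are UMIs per 1000000 UMIs of the set (CPM). They were counted at transcript 3′ ends and not divided by length, so levels of different genes were not ranked.

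A3 and B3 were rich in Pdgfra. Its level was 173 and 129 CPM in A1 and A2 and 939 CPM in A3. In the other ending it was 105 and 113 CPM in B1 and B2 and 408 CPM in B3. The label of the tissue is small intestine, and the 8 fibroblast and mesenchyme markers summed to 4147 to 7479 CPM over the 6 sets. Summed markers of other lineages differed with the sets as well. The 10 epithelial markers summed to 536 and 513 CPM in A1 and A2 and to 2629 CPM in A3, against 71.1, 68.8 and 151 CPM in B1, B2 and B3. In A3 these UMIs lay in nearly every cell: 8 of 1174 cells thinned to 2000 UMIs had none, the median cell had 5, and 108 had 10 or more. The 7 blood lineage markers summed to 15.0 and 16.01 CPM in A1 and A2 and 95.5 CPM in A3, and to 38.2, 29.9 and 69.5 CPM in B1, B2 and B3. The 7 endothelial markers summed to 24.3, 25.8 and 86.1 CPM in A1, A2 and A3 and to 32.5, 30.6 and 73.4 CPM in B1, B2 and B3. Erythroid markers were at 41.9 to 53.7 CPM in ending A and at 1864, 1794 and 3774 CPM in B1, B2 and B3. Enteric neuron markers ran the other way, at 43.3, 46.3 and 7.32 CPM in A1, A2 and A3 and 111, 113 and 5.24 CPM in B1, B2 and B3. The part of these differences in the results for A3 was not tested. In ending B the member ratios were also measured in cells without any epithelial, endothelial or blood lineage marker UMI, which left 1218 cells of B3. There the log2 ratios of B3 over B1 and B2 kept their sign for 9 of the 10 genes, and Lmod1 gave no value. They were -1.75 for Acta2, -2.82 for Tagln, -4.81 for Actg2, 1.64 for Synpo2 and 1.10 for Myocd.

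The early genes were lower in A3 and B3. Acta2 encodes smooth muscle alpha-actin and lies on the minus strand at chr19:34241090-34255590 (mm10). Its level was 918 CPM in A1, 934 CPM in A2 and 316 CPM in A3, and 490 CPM in B1, 476 CPM in B2 and 139 CPM in B3. A3 and B3 were thus well below their companion sets, which nearly coincided. The log2 ratio of set 3 over sets 1 and 2 was -1.55 (95% interval -1.60 to -1.50) in ending A and -1.80 (-1.89 to -1.71) in ending B, whereas A1 over A2 gave -0.03 and B1 over B2 gave 0.04.

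Tagln encodes transgelin, an actin-binding protein, at chr9:45929619-45936058 on the minus strand. Its level was 303, 319 and 96.5 CPM in A1, A2 and A3, and 356, 332 and 43.6 CPM in B1, B2 and B3. The log2 ratio was -1.69 (-1.79 to -1.59) in ending A and -2.97 (-3.13 to -2.82) in ending B, so the intervals for the endings did not meet. Myl9 encodes the regulatory light chain of smooth muscle and non-muscle myosin, at chr2:156775420-156781658 on the plus strand. It stood at 259, 271 and 194 CPM in A1, A2 and A3, and at 257, 255 and 116 CPM in B1, B2 and B3. Its log2 ratios of -0.45 (-0.52 to -0.38) and -1.14 (-1.24 to -1.04) were the smallest among the early genes.

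Actg2, Cnn1 and Lmod1 showed the deepest deficits of the 10 genes in both endings. Actg2 encodes enteric smooth muscle gamma-actin, at chr6:83512905-83536265 on the minus strand. It was at 171 and 186 CPM in A1 and A2 and at 22.0 CPM in A3. In ending B it was at 165 and 176 CPM in B1 and B2 and at 5.24 CPM in B3, where 43 UMIs were counted in all. This was 8.13-fold lower in A3 (log2 ratio -3.02, -3.23 to -2.82) and 32.6-fold lower in B3 (-5.03, -5.50 to -4.59). Acta2 and Actg2 code for nearly the same protein as other actins, and how reads shared by actin genes were counted is not given in the sources used here, so their counts are uncertain to that extent.

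Cnn1 encodes calponin, a regulator of the actomyosin ATPase, at chr9:22099216-22109630 on the plus strand. Its level was 30.3, 28.4 and 3.23 CPM in A1, A2 and A3, and 34.7, 34.1 and 0.73 CPM in B1, B2 and B3. The third sets held 30 and 6 Cnn1 UMIs, and the log2 ratios were -3.19 (-3.76 to -2.67) and -5.55 (-7.01 to -4.43). Lmod1 encodes leiomodin, which nucleates actin filaments, at chr1:135324807-135368065 on the plus strand. It was scarce everywhere, at 6.64, 6.27 and 0.65 CPM in A1, A2 and A3 and at 6.87, 5.36 and 0.24 CPM in B1, B2 and B3. With 6 UMIs in A3 and 2 in B3, its log2 ratios of -3.32 and -4.64 had intervals of -4.78 to -2.19 and -7.70 to -2.76. In cells with no thinned Pdgfra UMI the ratio of Lmod1 in ending A was -2.02 (-3.91 to -0.65) over all their UMIs and -0.97 (-4.06 to 0.96) over thinned UMIs, of which A3 held 2.

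Myh11, the smooth muscle myosin heavy chain that is often taken as the most specific marker of the lineage, differed least among the late genes that were lower. The gene lies at chr16:14194535-14291372 on the minus strand. It was at 89.1, 84.6 and 44.3 CPM in A1, A2 and A3, and at 59.3, 69.5 and 35.4 CPM in B1, B2 and B3. The log2 ratios were -0.97 (-1.12 to -0.83) and -0.87 (-1.06 to -0.69), against gaps of 0.07 for A1 over A2 and -0.23 for B1 over B2.

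Des went in opposite directions in the 2 endings. It encodes desmin, the muscle intermediate filament protein, at chr1:75360329-75368579 on the plus strand. The level was 40.2 CPM in A1, 41.0 CPM in A2 and 69.9 CPM in A3, but 37.3 CPM in B1, 38.0 CPM in B2 and 5.24 CPM in B3. The 4 first and second sets lay within 4 CPM of each other, with A3 above all of them and B3 below all of them. The log2 ratio was 0.78 (0.66 to 0.91) in ending A and -2.84 (-3.32 to -2.40) in ending B.

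Synpo2 and Myocd were higher in A3 and B3. Synpo2 encodes myopodin (synaptopodin 2), an actin-bundling protein of Z-discs and smooth muscle, at chr3:123076519-123236149 on the minus strand. It was at 113, 107 and 257 CPM in A1, A2 and A3, and at 73.2, 77.6 and 229 CPM in B1, B2 and B3. The log2 ratio was 1.22 (1.15 to 1.29) in ending A and 1.60 (1.50 to 1.70) in ending B. Myocd encodes myocardin, the coactivator of serum response factor, at chr11:65176561-65269989 on the minus strand. It was at 10.1, 11.5 and 19.8 CPM in A1, A2 and A3, and at 5.08, 5.45 and 15.0 CPM in B1, B2 and B3. Its log2 ratios were 0.88 (0.64 to 1.12) and 1.51 (1.13 to 1.89), on 184 UMIs in A3 and 123 in B3. In cells with no thinned Pdgfra UMI the ratio of Myocd in ending A was 0.20 (-0.37 to 0.72) over all their UMIs, so no difference was detectable there.

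**Figure D1:**
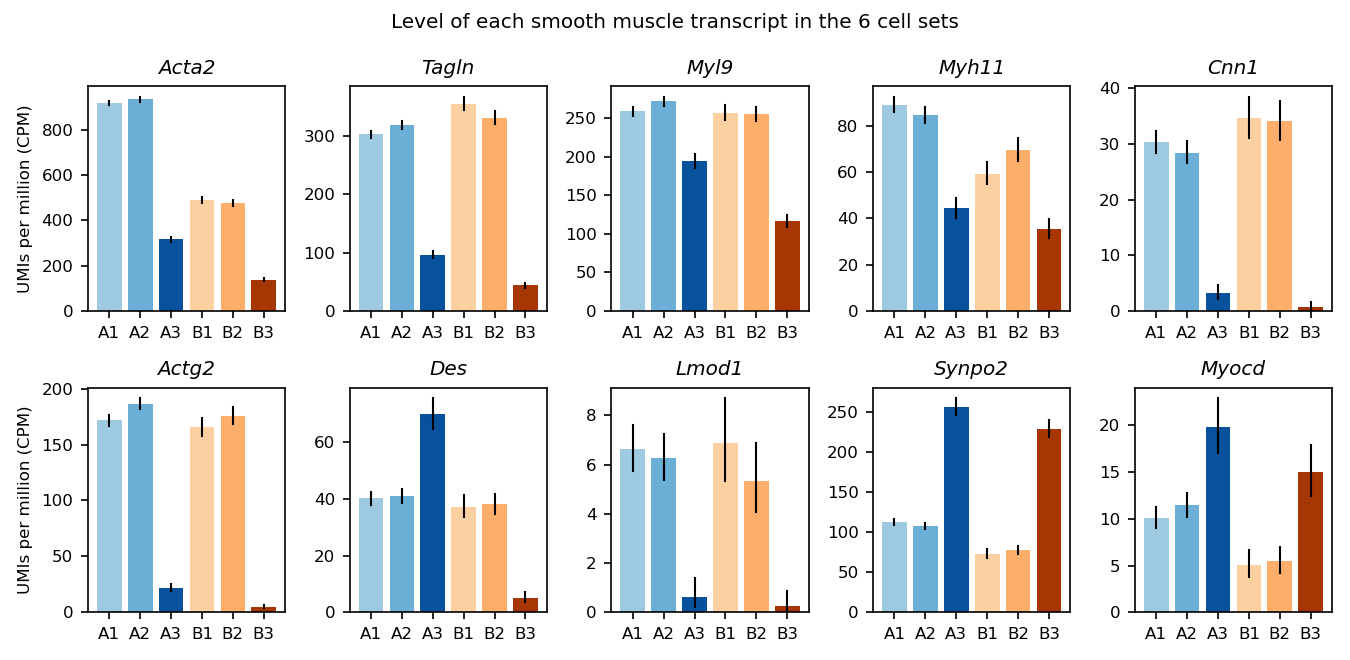
Level of each gene in CPM (vertical axes start at 0 and differ between panels) in the 6 sets on the horizontal axis; bars are the level of 1 set and black lines its 95% counting interval. Sets 1 and 2 of an ending stand at nearly the same height in each panel, set 3 is low for Acta2, Tagln, Actg2, Cnn1 and Lmod1, and it is high for Synpo2 and Myocd; Des is high in A3 and low in B3.

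Of the 10 genes, 7 were lower and 3 higher in A3, and 8 were lower and 2 higher in B3. The smallest difference between set 3 and its companions was 0.45 in ending A and 0.87 in ending B on the log2 scale, without regard to sign, while the largest gap between sets 1 and 2 was 0.18 and 0.36. A call was a difference of 2-fold or more in a gene with at least 20 CPM in 1 set of the ending, which 8 of the 10 genes reached in each ending; Lmod1 and Myocd did not. In A3, 4 of these 8 were lower by 2-fold (Acta2, Tagln, Actg2, Cnn1), against 5.65% of the 7417 genes measured that way, and 1 was higher (Synpo2), against 9.64%. In B3, 6 of the 8 were lower (Acta2, Tagln, Myl9, Actg2, Cnn1, Des), against 5.38% of 6410 genes, and 1 was higher (Synpo2), against 8.64%. Between A1 and A2 the share of genes past 2-fold was 0.208%, and between B1 and B2 it was 0%. The median log2 ratio of the 10 genes was -1.26 in ending A and -2.32 in ending B, beside -0.05 and 0.12 for all genes measured.

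**Figure D2:**
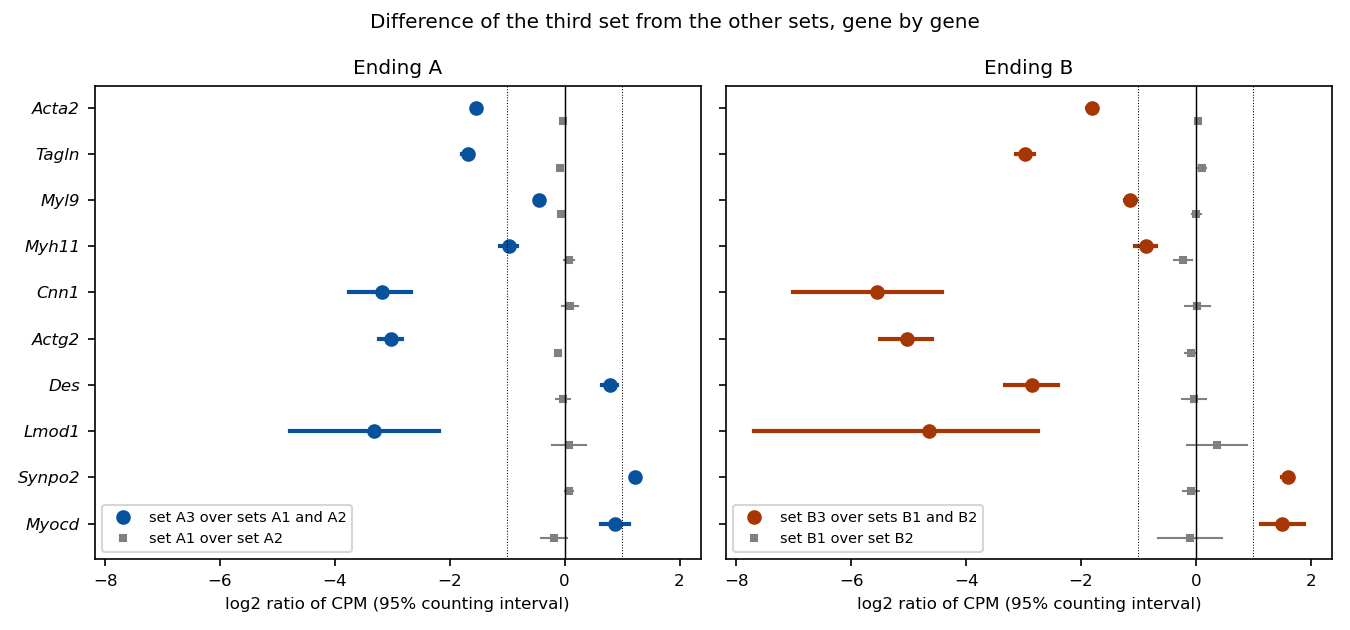
Log2 ratio of CPM (horizontal axis) for each gene, with the third set over sets 1 and 2 as coloured circles and set 1 over set 2 as grey squares, and 95% counting intervals as lines; dotted lines mark 2-fold. The grey squares stay near 0, between -0.23 and 0.36, while the coloured points run from -5.55 for Cnn1 in ending B to 1.60 for Synpo2 in ending B.

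Promoter sequence was examined because the program is read through CArG boxes and its genes did not move as 1 block. RefSeq promoters (GRCm38.p6) were at hand for 6 of the 10 genes, and the 250 bases before the start site were searched on both strands for the CArG box, a motif whose complement has the same form and which was the only motif searched. A box without mismatch was found in 1.47% of 32851 promoters and a box with at most 1 mismatch in 18.6%. Myl9 had a box without mismatch that begins 161 bases before the start and another with 1 mismatch at 99 bases. Acta2 had 2 boxes with 1 mismatch, which begin 84 and 34 bases before the start, and Lmod1 had 2, at 189 and 164 bases. Distances are from the RefSeq start, which is not always the end of the GENCODE gene given above: both Acta2 sites lie inside that gene, downstream of its GENCODE start. The sites are shown 5′ to 3′ on the strand of the gene, with the box in capitals and 10 bases on either side.
Myl9, 161 bases before the start, chr2:156775293-156775322, plus strand: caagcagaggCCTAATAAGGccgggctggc
Myl9, 99 bases before the start, chr2:156775355-156775384, plus strand: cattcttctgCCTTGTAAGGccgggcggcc
Acta2, 84 bases before the start, chr19:34255438-34255467, minus strand: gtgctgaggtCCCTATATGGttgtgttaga
Acta2, 34 bases before the start, chr19:34255388-34255417, minus strand: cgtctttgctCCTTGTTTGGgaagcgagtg
Lmod1, 189 bases before the start, chr1:135324614-135324643, plus strand: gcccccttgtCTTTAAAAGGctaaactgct
Lmod1, 164 bases before the start, chr1:135324639-135324668, plus strand: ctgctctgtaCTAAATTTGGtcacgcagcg

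Des, Cnn1 and Synpo2 had no box with at most 1 mismatch in these 250 bases. Of these, Cnn1 was lower in A3 and B3, Des in 1 of them, and Synpo2 in none. Sequence further upstream and within the genes was not searched, and a link between boxes and directions was not tested. The window of Synpo2, the gene with the opposite direction to Acta2, is printed whole on the strand of the gene, and no part is in capitals because no box was found.
Synpo2, chr3:123236150-123236399, minus strand: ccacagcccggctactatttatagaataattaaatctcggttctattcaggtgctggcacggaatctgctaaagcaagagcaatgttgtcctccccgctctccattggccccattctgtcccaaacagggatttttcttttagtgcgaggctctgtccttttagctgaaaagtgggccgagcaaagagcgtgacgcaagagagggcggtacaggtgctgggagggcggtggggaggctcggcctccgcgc

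Early and late genes were then compared as sums. The early genes Acta2, Tagln and Myl9 together made up 1480, 1525 and 607 CPM in A1, A2 and A3, and 1103, 1063 and 298 CPM in B1, B2 and B3. The late genes Myh11, Cnn1, Actg2, Des, Synpo2 and Lmod1 made up 451, 454 and 397 CPM in A1, A2 and A3, and 377, 400 and 276 CPM in B1, B2 and B3. Late genes therefore held 23.4% and 22.9% of the UMIs of both groups in A1 and A2 and 39.5% in A3, and 25.5% and 27.4% in B1 and B2 and 48.0% in B3. The log2 late-to-early ratio of set 3 over sets 1 and 2 was 1.12 (1.05 to 1.18) in ending A and 1.36 (1.27 to 1.45) in ending B.

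The higher late share of A3 and B3 was not seen without Synpo2. Synpo2 supplied 5.83% and 5.39% of the UMIs of the 10 genes in A1 and A2 and 25.1% in A3, and 4.93%, 5.28% and 38.9% in B1, B2 and B3. Without Synpo2 the late genes held 18.6%, 18.52% and 18.7% in A1, A2 and A3, which are indistinguishable at this depth, with a log2 ratio of 0.02 (-0.07 to 0.11). This equal share was made of unlike parts. Of the UMIs of the 10 genes, Des supplied 2.07%, 2.06% and 6.83% in A1, A2 and A3, and Actg2 8.84%, 9.36% and 2.15%. In B1, B2 and B3 the late genes without Synpo2 held 21.6%, 23.3% and 13.6%, and the log2 ratio was -0.89 (-1.05 to -0.73), the reverse of the value with Synpo2. With Acta2 alone as the early and Myh11 alone as the late gene, the log2 ratio was 0.58 in ending A and 0.93 in ending B. The direction in ending B thus depended on which late genes were summed. In ending A a sum without both Synpo2 and Des was not made, so the equal share there does not speak for single late genes.

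The sum of all 10 genes was 1941, 1990 and 1023 CPM in A1, A2 and A3, and 1485, 1469 and 589 CPM in B1, B2 and B3. Its log2 ratio was -0.94 (-0.97 to -0.91) in ending A and -1.33 (-1.37 to -1.28) in ending B. Acta2 supplied 47.3% of this sum in A1 and 30.9% in A3, and without it the ratio in ending A was -0.55, which is 1.47-fold lower rather than 1.92-fold. Without Synpo2 and Myocd the ratios were -1.30 and -2.02.

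At equal depth, the share of cells with a UMI followed the levels. Among cells thinned to 2000 UMIs (12589 cells; 41 shallower cells were left out), Acta2 was seen in 71.2% of cells in A1, 71.2% in A2 and 27.3% in A3, and in 54.9%, 53.0% and 14.7% in B1, B2 and B3. Before thinning these shares were 97.8%, 97.5% and 50.5%, and 76.5%, 76.4% and 20.3%. Actg2 was seen after thinning in 27.6%, 29.5% and 4.34% of cells in A1, A2 and A3, and in 27.8%, 29.1% and 0.73% in B1, B2 and B3. Synpo2 was seen in 19.5%, 17.0% and 37.1%, and in 13.4%, 14.5% and 36.3%. At full depth no cell of A1 or A2 lacked all 10 transcripts, whereas 42 cells of A3 (3.57%) and 532 cells of B3 (24.3%) did, beside 25 in B1 and 32 in B2.

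These shares cannot be read as shares of muscle cells, because free RNA in a droplet also gives UMIs. The few cells with 3 or more enteric glia markers should lack the program. They had Acta2 after thinning in 87.5% (47.3 to 99.7) of 8 cells in ending A, against 62.1% of other cells. In ending B they had it in 46.2% (19.2 to 74.9) of 13 cells, against 41.5% of other cells. Their median depths were 15854 and 8389 UMIs, against 11471 and 3908 UMIs in other cells. The 30 and 12 cells with 3 or more blood lineage markers had it in 33.3% and 41.7%. Synpo2 was seen in 46.7% (28.3 to 65.7) of these blood-marker cells in ending A and 25% (5.49 to 57.2) in ending B, and in 12.5% of the glia-marker cells in ending A. These cells also carried Col1a1, a fibroblast collagen, at 1294 to 3129 CPM, so they were no clean negatives. Shares at or below the highest such share of the same ending were not read as expression. Among them were those of Acta2 in A1, A2, A3 and B3 and those of Synpo2 in every set but B3. The Acta2 shares of B1 and B2 exceeded 46.2% but lay inside its interval, so the rule does not settle them. The comparisons of levels between sets and classes of cells carry the same limit.

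The early genes and Myh11 were spread less evenly over the cells of A3 and B3 than over those of their companion sets. The measure was the variance of thinned UMIs in excess of the mean, divided by the squared mean, which is near 0 for counts scattered evenly and is not set by the level. For Acta2 it was 0.61, 0.64 and 4.02 in A1, A2 and A3 and 0.71, 0.71 and 6.21 in B1, B2 and B3. For Tagln it was 1.22, 0.93 and 4.64, and 1.04, 1.11 and 31.5, and for Myl9 0.60, 0.75 and 1.50, and 0.54, 0.62 and 2.19. The Tagln value of B3 rests on 102 cells with a thinned Tagln UMI. Before thinning, 1 cell held 27 of the 358 Tagln UMIs of B3, so the size of this value is uncertain. Synpo2 stood at 0.46, 0.28 and 0.39 in ending A and at 1.52, 1.32 and 0.25 in ending B, so it was most even where its level was high in ending B. Myh11 was at 1.28, 0.60 and 2.20 in A1, A2 and A3 and at 0.51, 0.88 and 3.04 in B1, B2 and B3. Des was at 2.28, 2.30 and 5.65 in A1, A2 and A3. Actg2 went the other way there, at 0.44, 0.44 and -0.11, with 51 cells of A3 holding a thinned UMI. Cnn1, Lmod1 and Myocd, and Actg2 and Des in the third set of ending B, were too scarce for the measure to be read, and no interval was computed for it. The 5% of cells with the most UMIs of the 10 genes, per UMI of the cell, held 13.4% and 14.0% of these UMIs in A1 and A2 and 21.7% in A3, and 16.8%, 18.0% and 25.5% in B1, B2 and B3. The range from the 5th to the 95th percentile of cells was 5.94 to 44.5 UMIs per 10000 in A1 and 0 to 17.5 in B3. The top share and this range used all UMIs of each cell and were matched neither for depth nor for level. Counting noise raises both where a cell holds few of these UMIs, so they were not read as a difference in spread.

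One cell of B2 stood out. It carried 327 UMIs of the 10 genes among 12588, or 260 per 10000, where the next cell of that set had 116. It held 101 Acta2, 81 Actg2, 66 Tagln, 38 Myl9, 18 Des, 17 Cnn1 and 5 Myh11 UMIs, with 1 Pdgfra UMI. The highest cells of the other 5 sets had 81.3 to 150 UMIs per 10000. The highest cell of B3 had 27 Tagln UMIs but 4 Acta2 and no Actg2, Myh11, Cnn1 or Des UMI. It was chosen after its values were seen, as was the cell of B2.

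Co-detection was measured at 2000 UMIs per cell, as the number of cells with both transcripts over the number expected within each set if they were independent. The interval took the observed number as a Poisson count and the expected number as fixed. It is too wide for genes seen in many cells, so an interval that includes 1 was not read as independence. Of the 45 possible pairs, 37 in ending A and 33 in ending B had at least 20 expected cells. The interval lay above 1 for 12 pairs and below 1 for none in ending A, and above 1 for 8 pairs and below 1 for 1 pair in ending B. Among all pairs of the 3937 genes seen in at least 5% of thinned cells of every set, the interval lay above 1 for 1.27% and below 1 for 1.27% in ending A, and for 1.32% and 1.14% in ending B. Of the 10 genes, only Acta2, Myl9, Myh11 and Synpo2 reached that share in every set. Expected numbers were not matched either, so the pairs of the 10 genes and these pairs are not alike. The ratios of the 10 genes were nonetheless close to 1, with medians of 1.08 and 1.06. They were based on thinned cells of the same libraries, so the pairs share depth and free RNA.

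The early genes went together. Acta2 and Tagln were found in the same cell in 1528 cells of ending A, 1.14 times the number expected (1.09 to 1.201), and in 1200 cells of ending B, 1.13 times that number (1.07 to 1.200). Acta2 with Myl9 gave 1.11 and 1.17, and Tagln with Myl9 gave 1.15 and 1.17. Acta2 with Myh11 gave 1.08 (0.99 to 1.17) in ending A, whose interval includes 1, and 1.14 (1.03 to 1.27) in ending B. The latter interval included 1 without B1 (0.99 to 1.32) and without B3, where its lower bound was 0.99996. Myh11 was also found with Tagln (1.14 and 1.15) and with Myl9 (1.18 and 1.15). In ending B Myh11 and Cnn1 met in 51 cells where 34.1 were expected (1.50, 1.11 to 1.97), whereas in ending A the ratio was 1.07 (0.77 to 1.45). In ending A Myh11 and Myocd met in 36 cells where 20.1 were expected (1.79, 1.26 to 2.48), whereas in ending B the ratio was 0.87 (0.37 to 1.71) on 8 cells.

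Synpo2 had no pair whose interval lay above 1 with another of the 10 genes in either ending. Its 8 pairs with enough cells in ending A had ratios of 1.02 to 1.09, and all their intervals included 1. In ending B its pair with Tagln was the 1 with an interval below 1, in 272 cells where 308 were expected (0.88, 0.78 to 0.996), while its pair with Myocd had the highest ratio (1.37, 0.99 to 1.85). Its pair with Pdgfra had an interval above 1 in ending B, in 662 cells where 539 were expected (1.23, 1.14 to 1.33). In the same cells Pdgfra with Acta2 gave 0.90 (0.83 to 0.98) and with Tagln 0.80 (0.72 to 0.89).

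**Figure D3:**
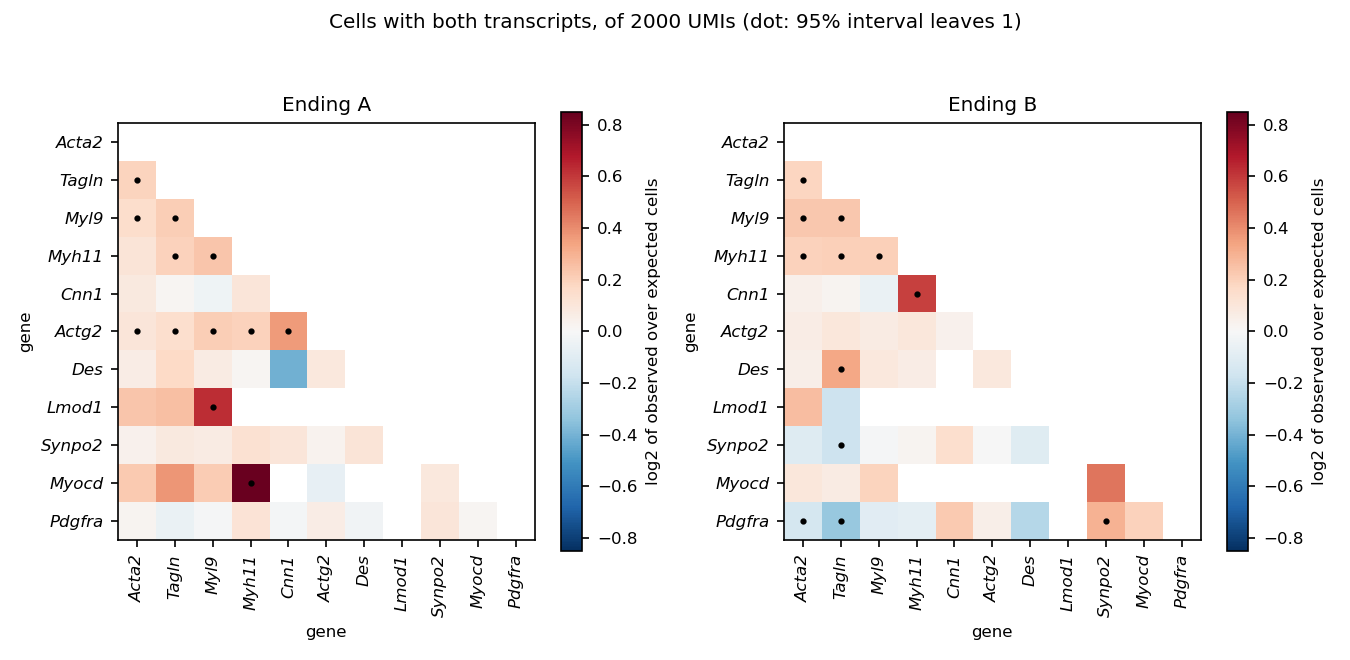
Co-detection of each pair among the 10 genes and Pdgfra, both axes listing genes, with colour giving the log2 of observed over expected cells in ending A and ending B; black dots mark pairs whose 95% counting interval leaves 1, and blank squares had fewer than 20 expected cells. The block of Acta2, Tagln, Myl9 and Myh11 is red throughout. The squares of Synpo2 with others of the 10 genes are pale apart from Myocd (1.37, in the Myocd row) and Tagln (0.88) in ending B. In the Pdgfra row of ending B Tagln (0.80) is blue and Synpo2 (1.23) red.

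In the third sets, where both were scarce, Tagln and Acta2 often met in the same cell. Of cells with a thinned Tagln UMI, 58.8% (50.4 to 66.8) also had Acta2 in A3, against 27.3% of all A3 cells, and 49.0% (39.0 to 59.1) did in B3, against 14.7%. In A1 and B1 the same shares were 80.2% against 71.2% and 59.0% against 54.9%. Of cells with a thinned Synpo2 UMI, 29.8% (25.6 to 34.4) had Acta2 in A3 and 13.54% (11.2 to 16.1) in B3. Both intervals included the share of all cells of the set, so no difference was detectable.

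Cells with more early UMIs also held more UMIs of the late genes other than Synpo2. Cells were sorted by their thinned UMIs of Acta2, Tagln and Myl9, and the late genes other than Synpo2 were summed. From cells with no early UMI to cells with 5 or more, this sum went from 235 to 491 CPM in A1, from 268 to 488 CPM in A2 and from 117 to 307 CPM in A3. In ending B it went from 248 to 433 CPM in B1, from 258 to 439 CPM in B2 and from 36.2 to 120 CPM in B3. Cells without any early UMI thus still held about as much of the late genes in A1, A2, B1 and B2 as the early-rich cells of A3. Myh11 alone went from 57.4 to 129 CPM in A1 and from 61.6 to 145 CPM in A2. Cnn1 was at 35.5 and 35.2 CPM in the lowest and highest class of A1, 29.9 and 36.0 CPM in A2, 42.2 and 54.9 CPM in B1 and 29.1 and 44.6 CPM in B2, with overlapping intervals in each of these 4 sets. Synpo2 went from 101 to 134 CPM in A1, from 93.3 to 123 CPM in A2 and from 232 to 313 CPM in A3, but from 84.3 to 58.8 CPM in B1 and from 106 to 70.6 CPM in B2, and in B3 it was at 246.5 and 230 CPM in the lowest and highest class. The intervals of the lowest and highest class overlapped for Synpo2 in each of the 6 sets.

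**Figure D4:**
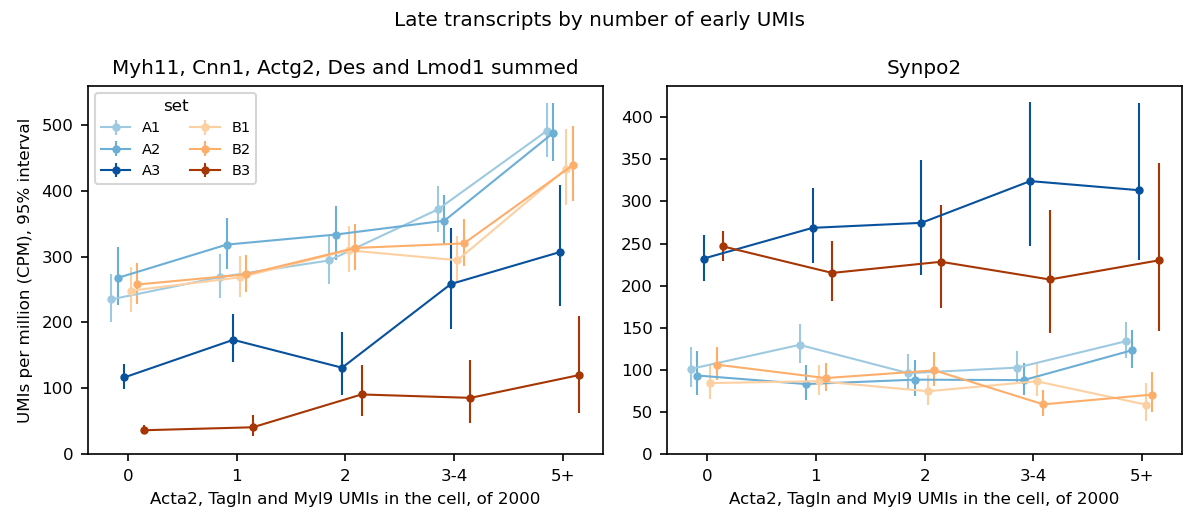
Level of the late genes other than Synpo2 (left) and of Synpo2 (right) in CPM against the number of Acta2, Tagln and Myl9 UMIs in the cell after thinning to 2000, with 1 line per set and 95% counting intervals. The left lines end higher than they begin in all 6 sets, from 235 to 491 CPM in A1 and from 36.2 to 120 CPM in B3, while on the right A3 and B3 stay above 200 CPM and the other sets below 140 CPM in each class.

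The relation to Pdgfra differed between sets and within sets. Pooled over ending A, Acta2 was at 676 CPM in cells with a thinned Pdgfra UMI and 831 CPM in cells without, and in ending B at 243 and 420 CPM. These pooled values mix Pdgfra-poor and Pdgfra-rich sets. Compared within each set and then combined, the log2 ratio of Pdgfra-positive over Pdgfra-negative cells was 0.17 (0.10 to 0.24) in ending A and -0.29 (-0.40 to -0.19) in ending B. The sets of ending A differed in sign, with Acta2 at 0.13 in A1, 0.30 in A2 and -0.23 (-0.48 to 0.02) in A3. The early genes summed gave 0.18 (0.10 to 0.27) in A2 and -0.22 (-0.39 to -0.04) in A3. In B1, B2 and B3 Acta2 was at -0.28, -0.20 and -0.54. Combined over sets, Tagln gave -0.13 (-0.24 to -0.01) in ending A and -0.53 (-0.67 to -0.40) in ending B. For the sum of 10 genes the ratio was 0.10 (0.05 to 0.14) in ending A and -0.11 (-0.17 to -0.06) in ending B. In ending A this ratio was -0.01 with 3000 UMIs per cell. With all sets, none of the 8 genes with 20 CPM passed 2-fold in either direction in either ending, against 0.377% of 7158 genes higher and 0.014% lower in ending A, and 0.0813% of 6153 genes higher and 0.504% lower in ending B. Without B3, Synpo2 did pass 2-fold in ending B, at 1.07 (0.85 to 1.28). Without A2, Acta2 in ending A was at 0.08 (-0.01 to 0.17), and its interval included 0. Myl9 gave -0.04 (-0.16 to 0.08) and -0.22 (-0.35 to -0.08), and Actg2 gave 0.23 (0.07 to 0.39) and 0.13 (-0.05 to 0.30). The intervals for Myh11, Cnn1, Des, Lmod1 and Myocd included 0 in both endings. With 2 or more Pdgfra UMIs against none, Myh11 in ending B was at -0.78 (-1.29 to -0.27), and Acta2 was at 0.04 (-0.08 to 0.17) in ending A and -0.58 (-0.77 to -0.38) in ending B. Intervals that included 0 with 1 set left out were those of Tagln in ending A without A1 or A3, Actg2 in ending A without A2 and Myl9 in ending B without B2, while Lmod1 in ending A without A1 fell just below 0, at -1.81.

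The level of Synpo2 was highest in the cells richest in Pdgfra in each of the 6 sets. With 0, 1, 2 and 3 or more thinned Pdgfra UMIs in the cell, its level was 107, 119, 147 and 287.5 CPM in A1 and 91.2, 107, 107 and 239 CPM in A2. It was 64.3, 121, 176 and 387 CPM in B1 and 73.8, 117, 193 and 333 CPM in B2. In the third sets the span was narrower, from 230.4 to 285 CPM in A3 and from 200.2 to 323 CPM in B3. The within-set log2 ratio was 0.28 (0.12 to 0.45) in ending A and 0.68 (0.54 to 0.81) in ending B, and 91.1% and 98.9% of all genes measured had a lower value. Taken singly, A2 (0.32, -0.02 to 0.65) and A3 (0.21, -0.08 to 0.50) had intervals that included 0. The classes with 3 or more Pdgfra UMIs were small, with 40, 23, 31 and 27 cells in A1, A2, B1 and B2.

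**Figure D5:**
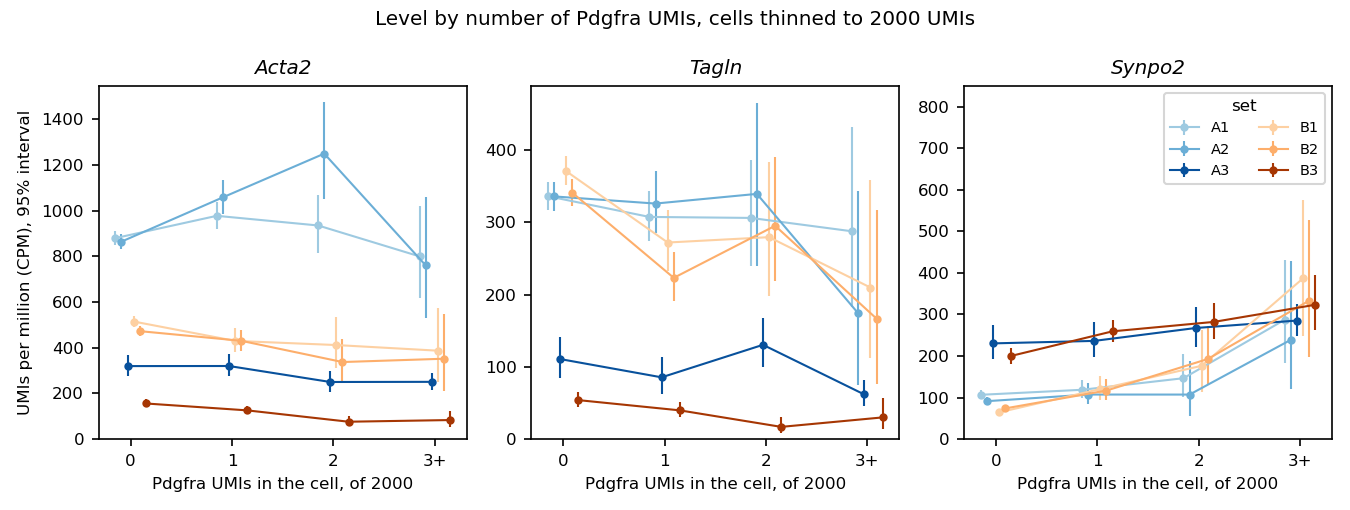
Level of Acta2, Tagln and Synpo2 in CPM against the number of Pdgfra UMIs in the cell after thinning to 2000, with 1 line per set and 95% counting intervals. The lines of A3 and B3 lie below the others at each class for Acta2 and Tagln, whereas for Synpo2 the 6 lines meet between 239 and 387 CPM at 3 or more Pdgfra UMIs.

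At equal Pdgfra, A3 and B3 kept their low Acta2 in each class, whereas their high Synpo2 was not detectable in cells with 3 or more Pdgfra UMIs. Among cells with no thinned Pdgfra UMI, Acta2 was at 320 CPM in A3 and 873 CPM in A1 and A2 together (log2 ratio -1.45, -1.67 to -1.23), and at 156 and 493 CPM in ending B (-1.66, -1.83 to -1.50). Among cells with 3 or more Pdgfra UMIs the ratios were -1.65 (-2.005 to -1.28) and -2.15 (-2.93 to -1.41). Actg2 without Pdgfra UMIs was at 12.5 and 173 CPM in ending A and at 2.89 and 167 CPM in ending B. For Synpo2 the log2 ratio was 1.21 (0.93 to 1.49) and 1.53 (1.34 to 1.72) without a Pdgfra UMI. It was 1.05 and 1.13 at 1 Pdgfra UMI and 0.9997 and 0.61 at 2, but 0.08 (-0.44 to 0.65) and -0.16 (-0.70 to 0.40) with 3 or more. A thinned cell without a Pdgfra UMI may still express the gene, so these classes match the counts and not the cells.

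Most other genes of the contractile apparatus were not lower by 2-fold. Of 34 listed, 22 in A and 21 in B had 20 CPM in 1 set, with 3 lower by 2-fold in each ending (all genes 5.65% and 5.38%) and median log2 ratios of 0.05 and 0.11. In both endings these were Svil (supervillin, -2.501 and -3.19), Nexn (nexilin, -1.34 and -1.89) and Tpm2 (beta-tropomyosin, -1.14 and -1.16). Mylk, the kinase that phosphorylates the light chain encoded by Myl9, was at 301, 321 and 319 CPM in A1, A2 and A3 and at 319, 354 and 311 CPM in B1, B2 and B3. Tpm1, alpha-tropomyosin, had a ratio of 0.06 (0.03 to 0.09) in ending A and was lower in ending B (-0.74, -0.78 to -0.70).

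Of 21 listed regulators of the program, 12 in A and 11 in B reached 20 CPM in 1 set. In ending A, 1 was higher by 2-fold (Zeb1, 1.56) and 1 was lower (Hand2, 45.1, 45.1 and 22.5 CPM in A1, A2 and A3), with a median of -0.09. In ending B, 2 were higher (Zeb1, 1.46, and Klf4, 1.33, which opposes myocardin) and 1 was lower (Mef2c, -1.24), with a median of 0.08. With 12 and 11 genes measured, 1 or 2 calls are near the shares of all genes, 9.64% higher and 5.65% lower in ending A and 8.64% and 5.38% in ending B. Srf, serum response factor itself, was at 34.1, 30.1 and 16.9 CPM in A1, A2 and A3 and at 34.0, 33.7 and 23.4 CPM in B1, B2 and B3. Its log2 ratios were -0.93 (-1.17 to -0.69) and -0.53 (-0.77 to -0.30), opposite in sign to those of Myocd.

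Vascular mural cells share much of the program. Of 12 pericyte and mural markers, 10 in A and 7 in B had 20 CPM in 1 set, with 5 higher and 2 lower in A3 (all genes 9.64% and 5.65%) and 1 higher and 3 lower in B3 (all genes 8.64% and 5.38%). Rgs5 was lower in both (-2.48 and -1.54), as was Notch3 (-1.87 and -1.39), and Kcnj8 was lower in B3 (-2.56). In A3 the largest ratios were those of Epas1 (4.03) and Ndufa4l2 (3.66), and Ndufa4l2 was the 1 higher in B3 (1.61). Rgs5 was also higher in the 5% of cells richest in the 10 genes than in the rest in 5 of the 6 sets, with an interval above 0 for the log2 ratio, and A2 was the exception (0.07, -0.12 to 0.25). The levels were 194 against 167 CPM in A1, 184 against 176 CPM in A2, 63.3 against 29.3 CPM in A3, 111 against 60.1 CPM in B1, 121 against 64.3 CPM in B2 and 44.2 against 21.2 CPM in B3. Pdgfrb, another of the listed markers, gave log2 ratios of -0.16, -0.59 and 0.47 in A1, A2 and A3 in this contrast. In B1, B2 and B3 it gave -0.65, 0.01 and -0.16, with intervals below 0 in A2 and B1 and above 0 in A3. Col1a1, a fibroblast collagen, gave 0.29, 0.15 and 0.12 in ending A and 0.31, 0.36 and 0.54 in ending B. The part of mural cells in the values of Acta2, Tagln and Myh11 was not tested. Striated muscle markers summed to 20.0 to 40.2 CPM in the 6 sets.

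The genes most like the 10 in their sum were sought over cells within each set, among 3933 genes seen in at least 5% of thinned cells in every set. The correlation was Pearson's r of log counts, averaged over the 6 sets and 12589 cells, and it is given as a description because genes and cells share depth and library. Tpm1 came first (mean r 0.24), followed by Myl6 (0.17), Tmsb4x (0.15), Tpm2 (0.14), Lsp1 (0.13), Actb (0.13), Mylk (0.12), Dstn (0.12), Cnn2 (0.12) and Flna (0.11). Of these, 6 were on the list of other contractile genes, Tmsb4x, Lsp1 and Dstn encode actin-binding proteins and Actb encodes beta-actin, and the values were positive in every set. The lowest were Tcf4 (-0.09), Procr (-0.08), Mmp2 (-0.07), Rps9 (-0.07) and H2afz (-0.07). For Synpo2 alone the highest were Malat1 (0.14), Ednrb (0.14), Tcf4 (0.12), Col6a4 (0.12) and Adamdec1 (0.10), with Pdgfra next (0.10). Tcf4, the lowest of all genes for the sum, was thus the third highest for Synpo2.

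Des in A3 had likeness of its own. Among 5850 genes in 1174 cells its highest correlations were with Aldh1a3, which makes retinoic acid (r 0.35), Plpp3 (0.30), Npnt, the basement membrane protein nephronectin (0.29), Igfbp3 (0.28) and Enpp2 (0.28). Aldh1a3 was also first for Des in A1 (0.14) and A2 (0.17). In the same A3 cells Acta2 was most like Tagln (0.33), Myl9 (0.28), Tpm1 (0.26) and Myl6 (0.22), and Des was not among its 10 highest. By number of early UMIs, Des in A3 was at 62.3 CPM with none and 187 and 167 CPM with 3 to 4 and with 5 or more, against 46.4 and 59.3 CPM at the ends of the range in A1. Within ending A, Des was also higher in A3 at matched Pdgfra, with log2 ratios of 0.56 (0.06 to 1.02) at 0 and 1.19 (0.67 to 1.70) at 1 Pdgfra UMI. The set and the genes most like Des were looked at after its values were seen.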

How the data were processed

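Single-cell libraries were made with 10x Genomics chips after MULTI-seq labelling of cells with lipid-bound barcodes, per the labels' protocols; live cells were sorted, and one lane per group was enriched. The authors deposited 1 matrix of raw UMI counts per gene and cell for all samples, made with Cell Ranger 2.1.1, Seurat and mm10 per the submitters' processing notes; their cell filter is not given in the sources used here. Cells with under 1000 genes (108 cells) or over 5% mitochondrial UMIs (367 cells) were left out. Scrublet in scanpy 1.11.5 called 60 doublets (0.457%), too few to be taken to have worked, and doublets may remain.

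Sets are barcode suffixes. Counts were summed per set; ratios carry exact conditional binomial intervals, shares Clopper-Pearson intervals, co-detection exact Poisson intervals, and Pdgfra ratios Mantel-Haenszel intervals (scipy 1.17.1), all at 95% and for counting error only. With 1 matrix and no map to samples, no edgeR or other model was fitted. Thinning drew 2000 UMIs per cell. The ratio, thinning and co-detection steps were tested on simulated data. Gene positions are from GENCODE (GRCm38) and promoters from RefSeq.

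The genes, lists and the split into early and late were chosen with earlier results of these data known. All 10 genes are named; of each other list, the 2 largest and 2 smallest ratios at 20 CPM were eligible; likeness names the 10 highest and 5 lowest genes. The genes of the other contractile list that were higher by 2-fold are not reported here. Alternatives were other cell filters, doublet handling, per-cell means, other sums, thinning to 1000 or 3000 UMIs, and each set left out.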

Additional observations from a re-analysis of the deposited data

Results flagged for a closer look

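Des had opposite differences in the 2 endings: its log2 ratio of the third set over the other sets was 0.78 in ending A, where A3 lay above both A1 and A2, and -2.84 in ending B, where B3 lay below both B1 and B2. The difference between the endings was not tested. No other of the 10 genes lay above its companions in 1 ending and below them in the other.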

How the results depend on the processing

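No paired analysis was possible because no label ties a barcode suffix to a sample or a replicate number. Neither cell filter nor doublet handling moved any of the 8 summary values beyond its interval, and the deposited cells of 1 set are 1 library, so depth limits Lmod1 and Cnn1 and, in B3, Actg2 and Des most. The sum of the 10 genes (log2 ratio -0.94 in ending A, -1.33 in ending B) was -1.26 and -2.32 as the median of the genes' own ratios, -0.55 and -1.14 without Acta2, and -1.004 in ending A in cells without a Pdgfra UMI. Leaving out 1 companion set gave -0.96 to -0.92 and -1.33 to -1.32. The late-to-early ratio (1.12 and 1.36) was 0.58 and 0.93 for Myh11 over Acta2, and 1.10 to 1.13 and 1.30 to 1.44 with 1 companion set left out. Alternatives chosen after seeing the data left out Synpo2, which gave 0.018 and -0.89, and Synpo2 with Myocd from the sum, which gave -1.30 and -2.02; cells of ending B without epithelial, endothelial or blood markers gave -1.32 and 1.33. The within-set Pdgfra ratio of the sum in ending A (0.10) was 0.021 at 1000 UMIs, -0.013 at 3000 UMIs, 0.040 without Acta2 and 0.046 to 0.14 with 1 set left out (without A2 the interval, -0.01 to 0.10, included 0), so its sign depends on the thinning; in ending B (-0.11) it was -0.035 without Acta2 and -0.14 to -0.08 with 1 set left out. Acta2 and Myh11 co-detection (1.08 and 1.14) ranged from 1.07 to 1.10 and from 1.12 to 1.19 with 1 set left out. Of 109 member ratios between sets recomputed under other settings, 94 stayed within the interval, 15 moved and 0 changed sign. Of 80 member ratios by Pdgfra recomputed after seeing the data, 69 stayed within and 11 moved, among them Acta2 in ending A, at 0.08 without A2, and Synpo2 in ending B, at 1.07 without B3.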
